A study of Mus musculus with 6 samples.

Results

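The RNA of 10 genes of the ATF4 amino acid stress response was examined in muscle satellite cells. They came from mice with a conditional deletion of Hira, the gene of the histone chaperone HIRA, and from controls. The 10 genes were Atf4, Ddit3, Trib3, Asns, Psat1, Phgdh, Chac1, Sesn2, Slc7a11 and Slc7a5. These genes were taken by their GENCODE M21 symbols from a hand-written list of pathway genes and are 10 of the 55536 genes in the count files. All 10 had enough counts to be among the 22404 genes tested. Of the 10, Sesn2 was higher and the transporter genes Slc7a11 and Slc7a5 were lower in Hira-deficient cells. The rise was 10.8%, and Slc7a11 decreased by 9.01% and Slc7a5 decreased by 10.3%. Atf4 itself and the other 6 genes did not pass the test. Over all tested genes 15.8% passed it, and 21.2% of those at least as abundant as Trib3. The calls of Sesn2 and Slc7a11 were lost when some single samples were left out, and that of Sesn2 also in DESeq2.

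RNA-seq had been performed on satellite cells, the stem cells of adult muscle, from adult male C57BL/6J mice aged 8 to 12 weeks. The 3 cKO samples came from Pax7CreErt2;Hira fl/fl mice and the 3 control samples from Pax7CreErt2;Hira fl/+ mice, which the sample labels call WT. Both groups thus carried the Cre recombinase, which is driven by the satellite cell gene Pax7 and activated by tamoxifen, given in the diet for 2 weeks, and the controls carried 1 floxed Hira allele. Muscle was injured with BaCl2, cells positive for CD34 and ITGA7 and negative for CD45, TER119 and SCA1 were sorted 5 days post-injury, and RNA was taken after 48 h of culture. The samples are described as independent RNA samples, and it is not said whether each came from a separate mouse, so the p-values measure the spread between these samples, which may be technical. Depth ranged from 47944477 to 63323577 counted reads per sample.

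ATF4 is a transcription factor whose messenger RNA is translated better when general translation is slowed. Lack of amino acids, unfolded protein in the endoplasmic reticulum (ER), haem deficiency and viral RNA each activate a kinase that phosphorylates the initiation factor eIF2alpha, and this favours translation of Atf4. ATF4 protein then induces genes that import amino acids, make them, load them on tRNA and limit growth. RNA-seq measures the messenger RNAs of Atf4 and its targets, not the ATF4 protein.

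The targeted gene was read first. Reads on Hira, on chromosome 16, numbered 375, 348 and 341 in control and only 161, 293 and 272 in cKO. No cKO sample reached the lowest control, and the log2 fold change was -0.43 (SE 0.12, adjusted p = 0.0237, edgeR). Leaving out control replicate 1 gave -0.34 and an adjusted p of 0.104. The paper reported a larger decrease of Hira by RT-qPCR, and no detected HIRA protein, in satellite cells of such cKO mice. Hira counts are uncertain, because 44.7% of its exonic bases are shared with another gene record on the same strand.

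The 10 genes covered a wide range of levels. For comparison between genes, levels are given as scaled CPM per kilobase, that is the counts relative to the library total (CPM), corrected by a scaling factor for each sample (TMM) and divided by the length of the merged exons. Atf4 was the most abundant, at 188 scaled CPM per kilobase over the 6 samples (range 185 to 190). Slc7a5 followed at 69.7 (63.1 to 75.6), ahead of Asns at 59.2 (57.3 to 62.0), Psat1 at 53.3 (51.7 to 55.5) and Phgdh at 32.0 (31.3 to 34.4). These ranges did not overlap. Chac1 at 10.2 (9.59 to 10.8) and Ddit3 at 9.83 (9.36 to 10.4) did overlap, and below them came Sesn2 at 8.14, Slc7a11 at 6.63 and Trib3 at 2.75. This order depends on the length used, which joins the exons of all transcripts and is 13922 bases for Slc7a11 and 2358 for Atf4. It also depends on the aligner, which left out reads spanning introns. Without correction for length, 1.21% of the tested genes had a higher mean level than Atf4, and 54.0% had a higher one than Trib3.

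A sequence feature was also read from their promoters. The 10 genes and the other lists were written from knowledge of these pathways, of which such promoter elements are a part. The shares of genes with an element therefore describe the lists and are no separate support for them. ATF4 binds DNA as a dimer with C/EBP proteins at an element whose letters were searched here as TGATGNAA, on both strands, from 250 bases before to 50 after each RefSeq gene start (GRCm38.p6). A window was found for 9 of the 10 genes, Slc7a5 being the exception. The letters were present in 4 of these 9 genes (44.4%), against 4.51% of the 27025 genes with a window. The matches are printed below because they show which of the 10 genes carry the element in this window, with the matching letters in capitals and the strand of the gene. In Slc7a11 (chr3:50443642-50443690, minus strand) there were 2 matches, from -66 to -59 and, on the other strand, from -47 to -40, both outside the M21 gene record. In Chac1 (chr2:119351038-119351067, plus strand) the match lay from -193 to -186 on the other strand. In Asns (chr6:7693214-7693243, minus strand) it lay from -23 to -16 of the RefSeq start, within a UTR of the longer M21 record. In Trib3 (chr2:152344028-152344057, minus strand) it lay from 15 to 22 bases after the RefSeq start, on the other strand and outside the M21 record.
Slc7a11: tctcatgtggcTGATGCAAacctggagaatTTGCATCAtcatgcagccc
Chac1: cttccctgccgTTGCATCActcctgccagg
Asns: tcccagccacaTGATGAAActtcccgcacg
Trib3: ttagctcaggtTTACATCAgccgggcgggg
A match of letters is a description of the sequence and not a measured binding site. The tRNA synthetase genes known as ATF4 targets carried the letters in 5 of 9 genes with a window (55.6%). A second element, the ER stress element, is known from promoters of ER chaperones. It was found in 0 of the 9 pathway genes, in 6 of 15 genes of the ER chaperone list (40.0%) and in 0.137% of all genes. Of the 4 genes with the ATF4 element, Slc7a11 passed the test between control and cKO, while Sesn2, which also passed it, had no match in its window.

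Atf4 (ENSMUSG00000042406), on chromosome 15 (80255184 to 80257541, mm10), was measured at 442, 447 and 447 scaled CPM in control samples and at 447, 435 and 442 scaled CPM in cKO samples. The groups overlapped and their means were 445 ± 2.73 and 441 ± 5.88 (SD, n = 3 each). The log2 fold change of cKO over control was -0.01 (SE 0.03, adjusted p = 0.832, edgeR's quasi-likelihood test), and its 95% interval was -4.98% to 3.34% of the control level. The sign turned to 0.01 when libraries were scaled by their total counts alone. With 3 samples against 3 an exact two-sided permutation test cannot give a p below 0.1, and single genes were therefore tested only within the edgeR fit over all genes.

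**Figure D1:**
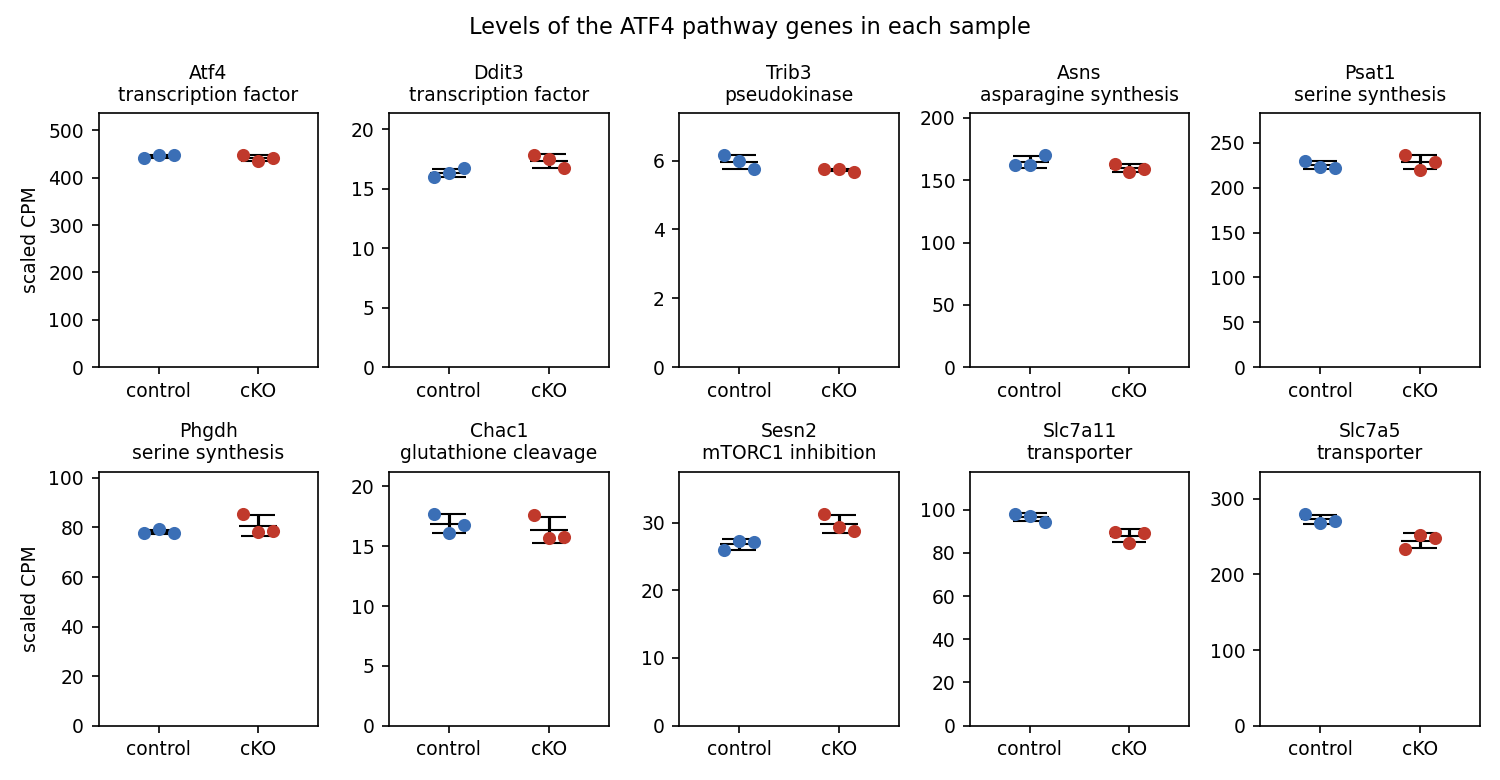
Scaled CPM (vertical axes, from 0) of each of the 10 genes in the 3 control samples (blue) and the 3 cKO samples (red). Points are samples and the black marks are the group mean with 1 SD; Sesn2 is higher in every cKO sample and Slc7a11 and Slc7a5 are lower in every cKO sample, while Atf4 lies between 435 and 447 in all 6.

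The stress regulators Ddit3 and Trib3, downstream of ATF4, did not pass the test. Ddit3 encodes CHOP, a transcription factor of prolonged stress, and had 16.0, 16.3 and 16.7 scaled CPM in control and 17.8, 17.5 and 16.7 in cKO. The groups touched without overlapping, and the log2 fold change was 0.08 (95% interval -0.02 to 0.19, adjusted p = 0.294, edgeR). Trib3, a pseudokinase that restrains ATF4 and AKT signalling, was at 6.15, 5.99 and 5.75 scaled CPM in control and 5.74, 5.74 and 5.68 in cKO. Its groups were also apart by a narrow margin, with a log2 fold change of -0.06 (95% interval -0.21 to 0.09, adjusted p = 0.662, edgeR), and they overlapped when CPM were taken from the library totals. A share of 4.73% of the exonic bases of Ddit3 overlaps genes on the other strand.

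The amino acid synthesis genes Asns, Psat1 and Phgdh did not pass it either. Asns, which makes asparagine, was at 162, 162 and 170 scaled CPM in control and 163, 157 and 159 in cKO, with a log2 fold change of -0.04 (95% interval -0.11 to 0.02, adjusted p = 0.422, edgeR). Psat1 and Phgdh encode enzymes of serine synthesis. Psat1 was at 230, 223 and 222 scaled CPM in control and 236, 220 and 229 in cKO, with a log2 fold change of 0.02 (95% interval -0.05 to 0.09, adjusted p = 0.761, edgeR). It changed sign, to -0.006, without cKO replicate 1. Phgdh was at 77.9, 79.3 and 77.8 scaled CPM in control and 85.5, 78.2 and 78.7 in cKO, which gave a log2 fold change of 0.04 (95% interval -0.04 to 0.13, adjusted p = 0.508, edgeR). The groups of all 3 enzymes overlapped on this scale, and the level of Phgdh in cKO replicate 1 stood above the other 5 samples.

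The counts of Phgdh are uncertain, since 35.8% of the 75-base windows of its transcripts occur unchanged in 13 other gene records, most of them processed pseudogenes. The pseudogene Gm7901 alone held 6938, 8036 and 7429 reads (control) and 6579, 7367 and 7220 reads (cKO), more than the 4366, 4980 and 4733 and the 4122, 4701 and 4409 of Phgdh. When all 14 records were summed, the log2 fold change remained 0.04 with an adjusted p of 0.510 (edgeR). The only other of the 10 genes with a shared window was Ddit3 (1.81%), which shares it with a nested record of the same symbol that held no counts. The level of Phgdh and its rank among the 10 genes are uncertain to this extent.

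Chac1, an enzyme that cleaves glutathione, was at 17.7, 16.1 and 16.8 scaled CPM in control and 17.6, 15.7 and 15.8 in cKO. The groups overlapped, with a log2 fold change of -0.05 (95% interval -0.17 to 0.08, adjusted p = 0.684, edgeR).

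Sesn2 (ENSMUSG00000028893), on chromosome 4 (132492032 to 132510501), was the gene of the 10 that rose. Its product, sestrin 2, inhibits the growth kinase complex mTORC1 when leucine is scarce. It was measured at 25.9, 27.3 and 27.2 scaled CPM in control and at 31.3, 29.3 and 28.8 in cKO, which is 26.8 ± 0.813 against 29.8 ± 1.34 (SD, n = 3 each). Every cKO sample lay above every control sample. The rise was 10.8%, a log2 fold change of 0.15 (SE 0.05, 95% interval 0.05 to 0.24, adjusted p = 0.0349, edgeR). This call was weak. The adjusted p was 0.102 without cKO replicate 1, 0.155, 0.076 and 0.080 without control replicates 1, 2 and 3, and 0.0899 in DESeq2, although the log2 fold change stayed between 0.11 and 0.17 with any sample left out. Of the paralogues of Sesn2, Sesn1 fell from 24.0 ± 0.561 to 20.7 ± 0.659 scaled CPM (log2 fold change -0.21, adjusted p = 0.00382) and Sesn3 from 49.3 ± 1.84 to 44.7 ± 1.67 (log2 fold change -0.14, adjusted p = 0.0287). Sesn3 was not called without control replicate 1 or 3 or cKO replicate 1 or 3, with an adjusted p of up to 0.142.

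The transporter genes were the members that fell. Slc7a5 (ENSMUSG00000040010), on chromosome 8 (121881150 to 121907694), encodes LAT1, the exchanger that brings leucine and other large neutral amino acids into the cell. It was at 280, 268 and 270 scaled CPM in control and at 234, 252 and 248 in cKO, that is 273 ± 6.70 against 245 ± 9.39 (SD, n = 3 each). All cKO samples lay below all control samples. Slc7a5 decreased by 10.3%, a log2 fold change of -0.16 (SE 0.03, 95% interval -0.23 to -0.08, adjusted p = 0.00495, edgeR), and the adjusted p stayed between 0.00144 and 0.0312 with any sample left out.

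Slc7a11 (ENSMUSG00000027737), on chromosome 3 (49892526 to 50443614), encodes xCT, which imports cystine in exchange for glutamate. It was at 98.1, 97.3 and 94.4 scaled CPM in control and at 89.9, 84.5 and 89.4 in cKO, or 96.6 ± 1.96 against 87.9 ± 3.01 (SD, n = 3 each), again without overlap. Slc7a11 decreased by 9.01%, a log2 fold change of -0.14 (SE 0.04, 95% interval -0.21 to -0.06, adjusted p = 0.0132, edgeR). The Slc7a11 call was lost on leaving out control replicate 1 (adjusted p = 0.0627) or 2 (adjusted p = 0.0665).

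LAT1 and xCT each work as a pair with the same heavy chain, encoded by Slc3a2, which is itself an ATF4 target and is not one of the 10 genes. Slc3a2 was at 183, 173 and 169 scaled CPM in control and 159, 158 and 165 in cKO, or 175 ± 7.34 against 160 ± 3.80 (SD, n = 3 each). It fell with a log2 fold change of -0.13 (SE 0.04, adjusted p = 0.0230, edgeR). Its adjusted p rose to 0.133 and 0.0607 on leaving out control replicate 1 or 2, and to 0.0605 with scaling by total counts. The counts of Slc7a5 were 156 ± 3.47% of those of Slc3a2 in control and 153 ± 6.47% in cKO, and those of Slc7a11 were 55.2 ± 1.47% and 54.9 ± 1.59% (SD, n = 3 each). Both ratios overlapped between the groups. The ratios to Atf4 did not: Slc7a5 counts were 61.2 ± 1.88% of Atf4 counts in control and 55.4 ± 2.82% in cKO, Slc7a11 counts were 21.7 ± 0.537% and 19.9 ± 0.448%, and Sesn2 counts were 6.02 ± 0.146% and 6.74 ± 0.247%. For Asns the ratio to Atf4 was 36.9 ± 0.909% and 36.1 ± 0.232%, with overlap. Because Atf4 hardly differed between the groups, the ratios to Atf4 restate the differences of each gene given above and are no separate support for them.

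**Figure D2:**
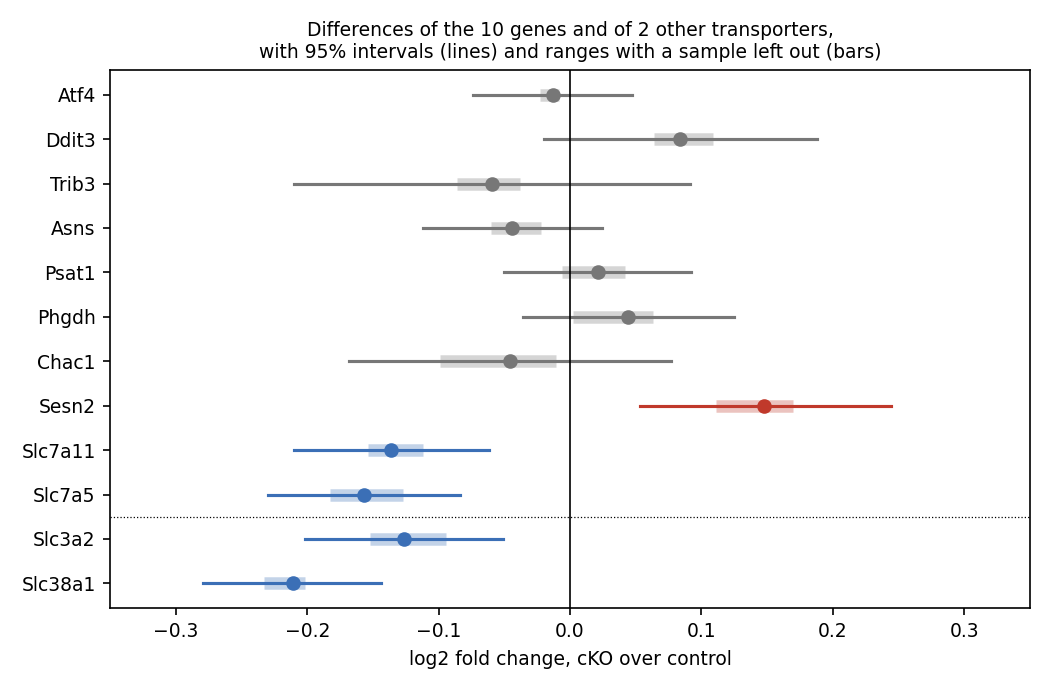
Log2 fold change of cKO over control (horizontal axis) for the 10 genes and, under the dotted line, the transporter genes Slc3a2 and Slc38a1. Points are estimates over 3 samples a group, thin lines their 95% intervals, thick pale bars the range with any sample left out, and colour marks an adjusted p under 0.05 (red higher, blue lower in cKO); the intervals of Atf4 and 6 further genes include 0.

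In all, 1 of the 10 genes was called higher and 2 were called lower at an adjusted p under 0.05. Over all 22404 tested genes 15.8% were called, 9.38% higher and 6.46% lower, and 21.2% of the 12103 genes at least as abundant as Trib3 were called. With 3 of 10 called, the pathway genes therefore stood near this background, and nothing particular to them can be read from the count. Their log2 fold changes ran from -0.16 to 0.15 with a median of -0.029, beside a median of -0.001 over all tested genes, and 4 lay above 0 and 6 below. In 5 of the 10 genes (Ddit3 and Sesn2 higher in cKO, Trib3, Slc7a11 and Slc7a5 lower) the groups did not overlap in scaled CPM, against 31.8% of all tested genes. With CPM of the library totals the number was again 5, with Phgdh in place of Trib3. The count of higher genes ranged from 0 to 1 and that of lower genes from 1 to 2 when any sample was left out. Scaling by total counts moved the calls over all genes to 2462 higher and 1057 lower, from 2101 and 1448, and left the counts among the 10 genes as they were.

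Among the cKO samples, replicate 1 had the highest scaled CPM for 9 of the 10 genes and the lowest for Slc7a5. It was also the sample with the fewest reads and the fewest Hira counts. Among the controls the highest level lay in replicate 1 for 5 genes, in replicate 2 for 3 and in replicate 3 for 2. The coefficient of variation within a group was between 0.613% and 4.75% in control and between 0.638% and 6.55% in cKO over the 10 genes. It was largest for Chac1 in both groups.

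**Figure D3:**
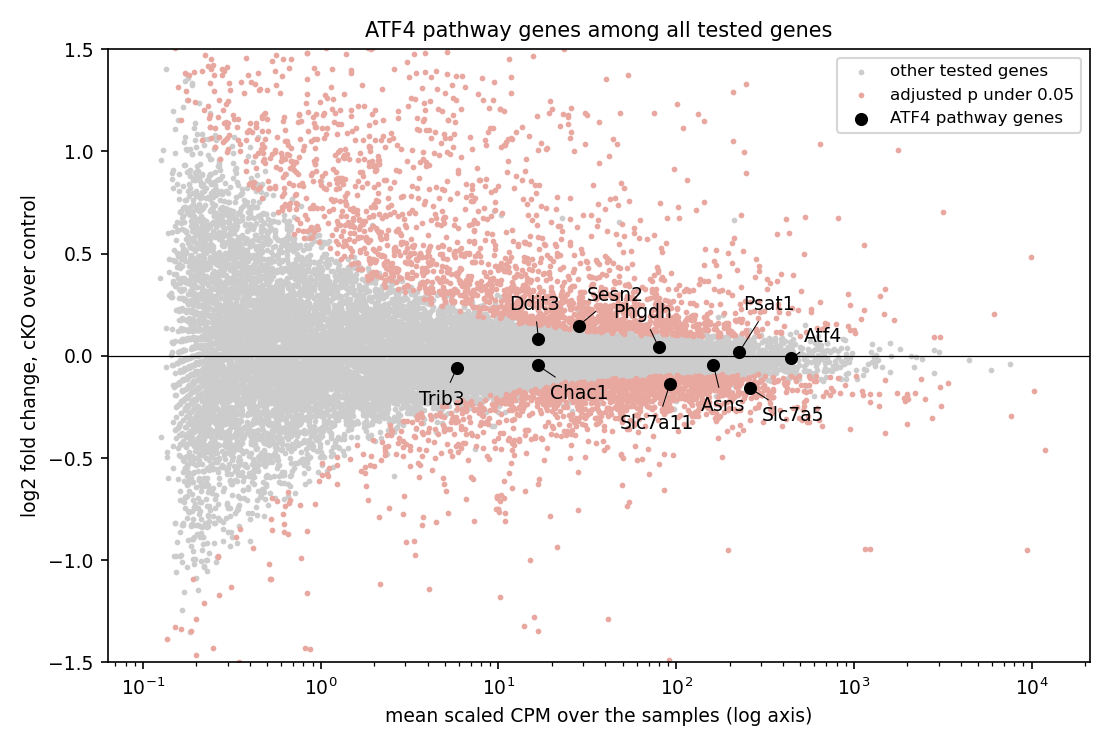
Log2 fold change of cKO over control (vertical axis, 72 genes beyond 1.5 either way are not shown) against mean scaled CPM over the 6 samples (horizontal log axis) for all tested genes. Black points are the 10 pathway genes, which all lie between -0.16 and 0.15; pink points are genes with an adjusted p under 0.05.

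Other genes of the pathway were read from 5 further lists with 52 genes in all, of which 1 was called higher and 5 lower, with a median log2 fold change of -0.011. For comparison, 4 lists of other synthetases, ER chaperones, NRF2 targets and paralogues, with 43 genes in all, had 10 higher and 6 lower, with a median of 0.016. Over all tested genes 9.38% were called higher and 6.46% lower, the shares to set beside the counts of each list. Beside counts of 0 the counts at an unadjusted p under 0.05 are also given, which 14.9% of all tested genes met in the higher and 12.7% in the lower direction. The genes of the upstream arm did not pass the test, and their RNA does not measure the phosphorylation by which this arm acts. Of 8 genes of the eIF2alpha kinases, their partners and the phosphatase subunits that reverse the phosphorylation, 0 were called by edgeR in either direction and 0 by DESeq2, and 2 were higher at an unadjusted p under 0.05. Eif2s1, the gene of eIF2alpha itself and the most abundant of the list per kilobase, was at 181 ± 2.23 scaled CPM in control and 183 ± 4.42 in cKO (SD, n = 3 each), with a log2 fold change of 0.02 (95% interval -0.04 to 0.09). The median of the list was 0.024.

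Of 10 other stress regulators, 1 was lower and 0 were higher in edgeR (at an unadjusted p under 0.05, 3 were lower and 1 higher, and DESeq2 called 1 lower and 0 higher). Nupr1, a small stress-induced chromatin protein, fell from 30.5, 29.7 and 31.2 scaled CPM to 25.4, 27.4 and 26.4, a log2 fold change of -0.21 (SE 0.04, adjusted p = 0.00343, edgeR). The most abundant of the list per kilobase was Fgf21, a hormone induced by ATF4 in stressed muscle, at 60.3 ± 1.59 in control and 60.9 ± 4.77 in cKO, with a log2 fold change of 0.01 (adjusted p = 0.896, edgeR). The number of lower genes in this list reached 3 when cKO replicate 1 was left out and 2 when control replicate 3 was, and 2 genes were higher without cKO replicate 2.

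Among 8 other amino acid transporter genes, 2 were lower, and 0 were higher in edgeR, in DESeq2 and at an unadjusted p under 0.05. Besides Slc3a2, the glutamine transporter gene Slc38a1 fell from 99.9, 102 and 101 scaled CPM to 86.7, 89.5 and 86.0, a log2 fold change of -0.21 (SE 0.03, adjusted p = 0.000239, edgeR). The groups were well apart, and its adjusted p stayed at or under 0.00349 with any sample left out. The median of the list was 0.001, and the count of lower genes was 1 without control replicate 1 or 2.

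Of 13 other enzymes of amino acid and one-carbon metabolism, 1 rose and 2 fell. Bcat1, which transfers the amino group of branched-chain amino acids, rose from 65.4, 67.5 and 69.4 scaled CPM to 88.2, 92.4 and 89.8, a log2 fold change of 0.42 (SE 0.04, adjusted p = 5.96e-07, edgeR). Mthfd2 and Shmt1 act in the folate cycle that takes up one-carbon units from serine. Mthfd2 fell from 140 ± 2.20 to 127 ± 1.02 (log2 fold change -0.14, adjusted p = 0.00486) and Shmt1 from 21.7 ± 0.396 to 19.6 ± 0.393 (log2 fold change -0.15, adjusted p = 0.0258, edgeR). The most abundant of the list per kilobase, Shmt2, was at 149 ± 2.58 and 147 ± 2.3 (adjusted p = 0.756, edgeR). With cKO replicate 2 or 3 or any control sample left out, Shmt1 was not called and the count of lower genes was 1.

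The tRNA synthetase genes induced by ATF4, 13 genes with the tRNA exporter Xpot among them, had 0 calls in edgeR and 0 in DESeq2, with 5 lower and 0 higher at an unadjusted p under 0.05. Their median log2 fold change was -0.017. Nars, the most abundant per kilobase, was at 420 ± 3.19 scaled CPM in control and 415 ± 7.69 in cKO. Without cKO replicate 2, 1 of them was called lower. Of 8 other cytosolic synthetase genes, which are not known as ATF4 targets, Dars fell (log2 fold change -0.10, adjusted p = 0.0350, edgeR) and 0 rose in edgeR or DESeq2, with 1 higher at an unadjusted p under 0.05. Without cKO replicate 2 or 3 or any control sample, Dars was not called, with adjusted p-values of up to 0.135. Rars, the most abundant of that list per kilobase, was at 191 ± 4.42 and 201 ± 4.25 (log2 fold change 0.07, adjusted p = 0.136, edgeR).

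Chaperones of the ER, which answer to the ATF6 and XBP1 arms of the unfolded protein response, were read as well. The list also holds other genes of this response, such as Atf6 and Xbp1. Of 18 genes, 7 were higher and 1 was lower, beside 9.38% and 6.46% of all tested genes, with a median log2 fold change of 0.074. Calr, which encodes calreticulin, rose from 1023 ± 15.4 to 1160 ± 19.7 scaled CPM (log2 fold change 0.18, adjusted p = 0.000486). Hsp90b1 rose from 883 ± 13.0 to 976 ± 4.35 (log2 fold change 0.14, adjusted p = 0.00231) and Pdia6 from 272 ± 2.24 to 295 ± 5.71 (log2 fold change 0.12, adjusted p = 0.00983, edgeR). Atf6 itself, which encodes a sensor of unfolded protein, fell from 292 ± 2.65 to 261 ± 6.80 (log2 fold change -0.16, adjusted p = 0.00162, edgeR). Leaving out control replicate 2 gave 3 higher genes, and leaving out control replicate 1 or 3 or cKO replicate 3 gave 4, and the count of lower genes was 2 without cKO replicate 1.

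Slc7a11 is also a known target of NRF2, the regulator of antioxidant genes, and 9 further NRF2 targets were read beside it. Hmox1, which degrades haem, rose from 264 ± 3.68 to 318 ± 9.20 scaled CPM (log2 fold change 0.27, adjusted p = 2.11e-05, edgeR). Gclc, the catalytic subunit of the first enzyme of glutathione synthesis, fell from 165 ± 3.01 to 149 ± 1.79 (log2 fold change -0.14, adjusted p = 0.00476), as did Gsr, glutathione reductase, from 70.6 ± 0.881 to 64.7 ± 2.25 (log2 fold change -0.13, adjusted p = 0.0219, edgeR). The median of the list was -0.056. Gsr was not called without cKO replicate 2 or 3 or any control sample, which left a count of 1.

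**Figure D4:**
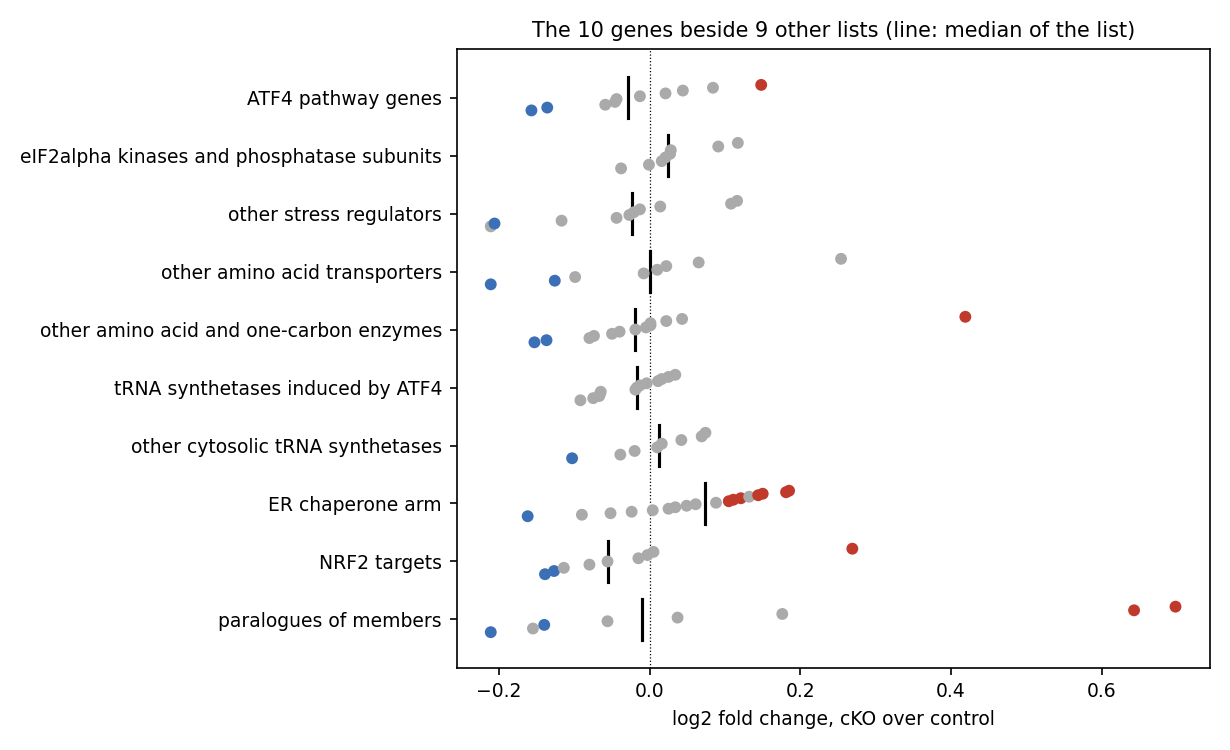
Log2 fold change of cKO over control (horizontal axis) for each gene of the 10 pathway genes and of 9 other lists (rows). Red and blue points are genes called higher or lower at an adjusted p under 0.05, grey points were not called and black lines are medians; the median of the ER chaperone list is 0.074 and that of the 10 pathway genes -0.029.

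Paralogues of the 10 genes were read last. Trib2 rose from 8.35, 7.88 and 7.77 scaled CPM to 12.3, 13.9 and 12.7 (log2 fold change 0.70, SE 0.07, adjusted p = 2.05e-06, edgeR), while Trib3 did not pass the test. Slc7a8, which encodes LAT2, rose from 1.34 ± 0.115 to 2.09 ± 0.133 (log2 fold change 0.64, adjusted p = 0.00277, edgeR), while Slc7a5 fell. Per kilobase Slc7a8 stood at 0.343 and Slc7a5 at 69.7, so that the paralogue that rose was the far scarcer one. Slc7a6, the most abundant of the list per kilobase, was at 41.6 ± 1.33 and 42.8 ± 2.85 (adjusted p = 0.689, edgeR). Of the 8 paralogues tested, 2 rose and 2 fell, the latter being Sesn1 and Sesn3, and 1 fell without the samples named above for Sesn3.

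Summed RNA levels of cell type markers differed with genotype, although the sort for CD45-negative and SCA1-negative cells would remove macrophages and many fibroblasts. Beside the counts below, 9.38% of all tested genes were called higher and 6.46% lower. Markers of macrophages summed to 143 to 149 scaled CPM in control and 297 to 344 in cKO, with 12 of 12 genes higher and Lyz2, Ctss and Cd68 the most abundant. Those of fibroblasts summed to 1336 to 1425 and 1796 to 1962 (6 higher of 9 tested and 10 listed, Col1a2, Col3a1 and Postn the most abundant). Those of endothelial cells summed to 18.3 to 20.7 and 28.3 to 33.5 (5 of 10 higher, 3 in DESeq2, Flt1, Cdh5 and Pecam1 the most abundant). Cdh5 was at 4.08, 6.36 and 4.18 scaled CPM in cKO, and the groups of Pecam1 overlapped. With 1 sample left out the adjusted p reached 0.177 for Cdh5 and 0.184 for Pecam1 (edgeR). Satellite cell markers summed to 7402 to 7475 in control and 6436 to 6919 in cKO (7 of 10 lower and 1 higher). Des, Chrna1 and Myod1 were the most abundant of them. Des and Chrna1, at means of 3226 and 2343 scaled CPM in control, held most of this sum, which says little of the scarcer markers. Muscle differentiation markers summed to 39055 to 40356 and 31347 to 34549 (9 of 12 lower and 1 higher, against 7 and 1 in DESeq2). Ttn, Myh3 and Acta1 were the most abundant of these, and Acta1 was not called (adjusted p = 0.454, edgeR). No marker was at 0 in all samples. In such bulk RNA fewer cells of a type and less RNA per cell cannot be told apart, and whether a marker's RNA came from other cells or from the satellite cells themselves cannot be told apart either. For Cdh5 the paper has other evidence, as it reported staining for the encoded protein, VE-Cadherin, in isolated cKO satellite cells. The part of these shifts in the differences of Sesn2, Slc7a11, Slc7a5 and the other genes was not tested.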

How the data were processed

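The members and the lists were chosen with earlier results of these data known. The deposited counts per gene are raw. The authors used TruSeq stranded total RNA libraries with ribosomal RNA removed from 400 ng, single-end reads of 75 bp, Bowtie2 2.3.4.2 on mm10 (an aligner that leaves out reads spanning introns) and featureCounts 1.6.3. The strand setting and the treatment of reads with several matches are not given in the sources used here. A deposited comparison table (mean, log2 fold change, standard error, Wald score, p and adjusted p) and a table of normalized values were not used.

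All 55536 gene identifiers matched GENCODE M21. Ddit3 has 2 records, and the longer was used. Genes were filtered with filterByExpr, scaled by TMM and tested with edgeR 4.0.16 (quasi-likelihood test, 2 groups, no covariate; R 4.3.3). Adjusted p-values are Benjamini-Hochberg values over all 22404 tested genes, and calls have an adjusted p under 0.05. These steps were tested on simulated data. Intervals of fold changes are 95% intervals from the same fit. Replicates varied by a common coefficient of 3.92%, and no 2 replicates held the same library (chi-square per gene 2.03 to 9.39). Depth was 47944477 to 63323577 counts per sample.

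Genes named are the 10 members, Hira, from each list up to 4 called genes with the smallest adjusted p plus the gene with the highest level per kilobase, and up to 3 markers per marker list with the highest level. Alternatives were DESeq2 1.42.0, 3 other scalings, no filter, a replicate block, the likelihood-ratio test and leaving out each sample. The summed Phgdh counts and the overlap in CPM of library totals were added after seeing the data. Promoter windows came from RefSeq on GRCm38.p6. Summaries and figures were made in Python 3.11.15 (pandas 2.3.3, matplotlib 3.10.9).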

Additional observations from a re-analysis of the deposited data

How the results depend on the processing

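With 3 samples a group, leaving out 1 sample decided the calls of Sesn2 and Slc7a11, and the values rest on how reads were counted upstream. The log2 fold changes of the 10 members kept their sign in DESeq2 and in the other edgeR settings, except that Atf4 was at 0.01 with scaling by total counts and Psat1 at -0.006 without cKO replicate 1, neither of them called. The median log2 fold change of all genes moved by no more than to 0.023, with total-count scaling. DESeq2 called 1603 genes higher and 1252 lower, and the fits without a control sample called 917 to 960 lower, against 1448 with all samples.

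The count of members called higher was 0 in DESeq2. With scaling by total counts the lists changed as follows: 1 stress regulator and 1 other synthetase were higher, 0 other synthetases were lower, and 1 other transporter, 1 other enzyme, 1 NRF2 target and 1 paralogue were lower. With DESeq2 1 other enzyme was lower. The count of lower stress regulators was 3 with RLE scaling, 3 with no filter and 2 with the likelihood-ratio test. The cause of these shifts was not tested.

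Leaving out each sample in turn gave 0 to 1 members higher and 1 to 2 lower, 0 to 2 stress regulators higher and 1 to 3 lower, 1 to 3 other transporters lower, 1 to 2 other enzymes lower, 0 to 1 ATF4-induced synthetases lower, 0 to 1 other synthetases lower, 3 to 7 ER chaperones higher and 1 to 2 lower, 1 to 2 NRF2 targets lower, 1 to 2 paralogues lower, and a log2 fold change of Hira from -0.524 to -0.286. Hspa5, an ER chaperone chosen after its values were seen, lost its call without cKO replicate 3 and without each control.

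Same-numbered control and cKO samples did not deviate together (correlations of -0.013, -0.004 and -0.015). With 3 samples a group these values cannot tell whether samples of the same number shared a litter or a preparation. With a replicate block 0 members were called higher (Sesn2 adjusted p = 0.0664, edgeR) and 2 lower, 0 other synthetases lower and 1 paralogue lower, and over all genes 1901 were higher and 1251 lower.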
